A study of Mus musculus with 6 samples.

Results

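The genes described here sense DNA damage, hold the cell cycle while damage is present and repair it. They were taken from a list of 42 named checkpoint and repair genes, of which 41 were measured on a panel of 770 genes, and Ercc6 was not analysed here. The samples were whole brains of SOD1-G85R transgenic mice and of wild-type (WT) mice, 3 of each genotype. Both genotypes have the C57BL/6 background, and day 10 is the time given for each. SOD1-G85R is a mutant of superoxide dismutase 1, an enzyme whose mutations can cause amyotrophic lateral sclerosis. The labels give neither the promoter nor the line of the transgene, nor the event from which days were counted, nor whether replicates were separate animals. P-values therefore measure only the spread between these samples. By role, the measured genes comprised 13 of the checkpoint, 13 of homologous recombination and the Fanconi pathway, 2 of end joining, 10 of base excision and repair synthesis, and 3 of mismatch repair, nucleotide excision repair and direct reversal.

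Cells meet DNA lesions with kinases that are drawn to breaks (ATM) or to single-stranded DNA (ATR), and these pass the signal to the checkpoint kinases CHK1 and CHK2. Broken ends are either resected and copied from a sister chromatid by homologous recombination, which needs a replicated genome and so acts in dividing cells, or joined directly by the Ku and DNA-PK machinery, which also serves neurons that no longer divide. Oxidised and deaminated bases, a common lesion of brain DNA, are cut out by glycosylases and refilled by polymerases, flap nucleases and ligases, several of which also copy DNA in S phase.

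RNA was counted by NanoString hybridisation, in which colour-coded probes are counted without amplification, and 1 normalized count per gene and sample was analysed. Implied total counts lay between 468718 and 1022642 in SOD1-G85R samples and between 689748 and 970287 in WT samples. SOD1-G85R replicate 2 stood apart, with correlations to the other samples of 0.824 to 0.834 on the log2 scale across genes, against 0.956 to 0.984 among the others. The median over 12 interferon response genes, as a log2 difference from the WT mean, was 4.92 in that sample, while SOD1-G85R replicates 1 and 3 had 0.13 and 0.58. The counts over the repair genes, and the log2 fold changes of several of them, are therefore also given without it. Because Sod1 was not analysed here, no check of the transgene against the labels was made. Markers of brain cell types were present, among them the neuronal glutamate transporter gene Slc17a7 at 2753 to 4398 in SOD1-G85R and 5378 to 6656 in WT. The T cell gene Cd3e was at 17.1, 87.6 and 31.3 in SOD1-G85R replicates 1, 2 and 3 and at the lowest value of each WT sample. The Y-linked gene Uty had 7.85, 466 and 10.2 in SOD1-G85R replicates 1, 2 and 3, and 684, 478 and 11.2 in WT. Samples with and without a clear signal of the Y chromosome were thus spread unevenly over the genotypes.

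For 34 of the 41 DNA repair genes the values of SOD1-G85R and WT brains overlapped, and few stood apart. Brca1, Dna2, Pole, Timeless, Nthl1 and Pcna were higher in every SOD1-G85R sample than in any WT sample, and Prkdc was lower. At an adjusted p of 0.05 limma called 0 of the 41 genes, as it called 0.0% of the 712 panel genes tested. At an unadjusted p of 0.05, limma gave 5 repair genes, which is 12.2% of them against 16.3% of the panel. All 5 were higher and 0 lower, where 11.7% of the panel was higher and 4.63% lower. Genotypes did not overlap in 7 repair genes, or 17.1%, against 27.0% of the panel. The 6 that were higher compare with 17.0% of the panel, and the 1 that was lower with 9.97%. In bulk tissue, a change in the number of cells of a type and a change in RNA per cell cannot be told apart. The higher share at an unadjusted p of 0.05 was close to the panel's, and the shares without overlap were below it. The median log2 fold change of the 41 genes was 0.20 against 0.15 over all genes tested. All 41 passed the filter on low values (above 20 in at least 3 of the 6 samples), and 0 of them were under 20 in every WT sample. However, Brca1 and Rad51b were above 20 in only 1 WT sample each, and Exo1 and Fancd2 in 2. Those genes passed only with SOD1-G85R samples counted, so their presence among the tested genes depended on that genotype.

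The common direction of the repair genes depended on how samples were scaled. As deposited, 31 of 41 had a positive fold change, against 62.6% of the panel. With samples centred on the panel's housekeeping genes the count stayed at 31 of 41, with a median of 0.19 against a panel median of 0.14. With each sample centred on its median 20 of 41 were positive, with a median of -0.0079 against a panel median of -0.059. After quantile normalization 7 of 41 were positive, with a median of -0.24 against a panel median of -0.083. Relative to the panel, the median of the repair genes was 0.052 higher as deposited. Centring shifts all genes of a sample alike, so it cannot change this difference. After quantile normalization the difference was -0.15. Which genes stood apart also depended on the scaling. Centring on housekeeping genes kept the 7 that did not overlap as deposited and added Fancd2 (higher). That is 19.5% of the 41 against 27.2% of the panel. With each sample centred on its median, Brca1, Dna2, Pole and Timeless were still without overlap, joined by Fen1 and Mgmt (higher) and Rnf8 (lower), while Nthl1, Pcna and Prkdc overlapped. After quantile normalization 0 repair genes, Brca1 included, were higher without overlap, and Rnf8 and Exo1 were lower, which is 4.88% of the 41 against 16.7% of the panel. Without SOD1-G85R replicate 2 the median of the repair genes was 0.13 against -0.019 over the 676 genes then tested, and 29 of 41 were positive against 48.4% of the panel. Genotypes then did not overlap in 10 of them, or 24.4%, against 32.7% of the panel. Of these, 9 were higher and 1 lower, where 15.8% of the panel was higher and 16.9% lower. At an unadjusted p of 0.05, limma gave 6 repair genes, or 14.6%, against 14.9% of the panel. All 6 were higher, where 9.32% of the panel was higher and 5.62% lower.

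**Figure D1:**
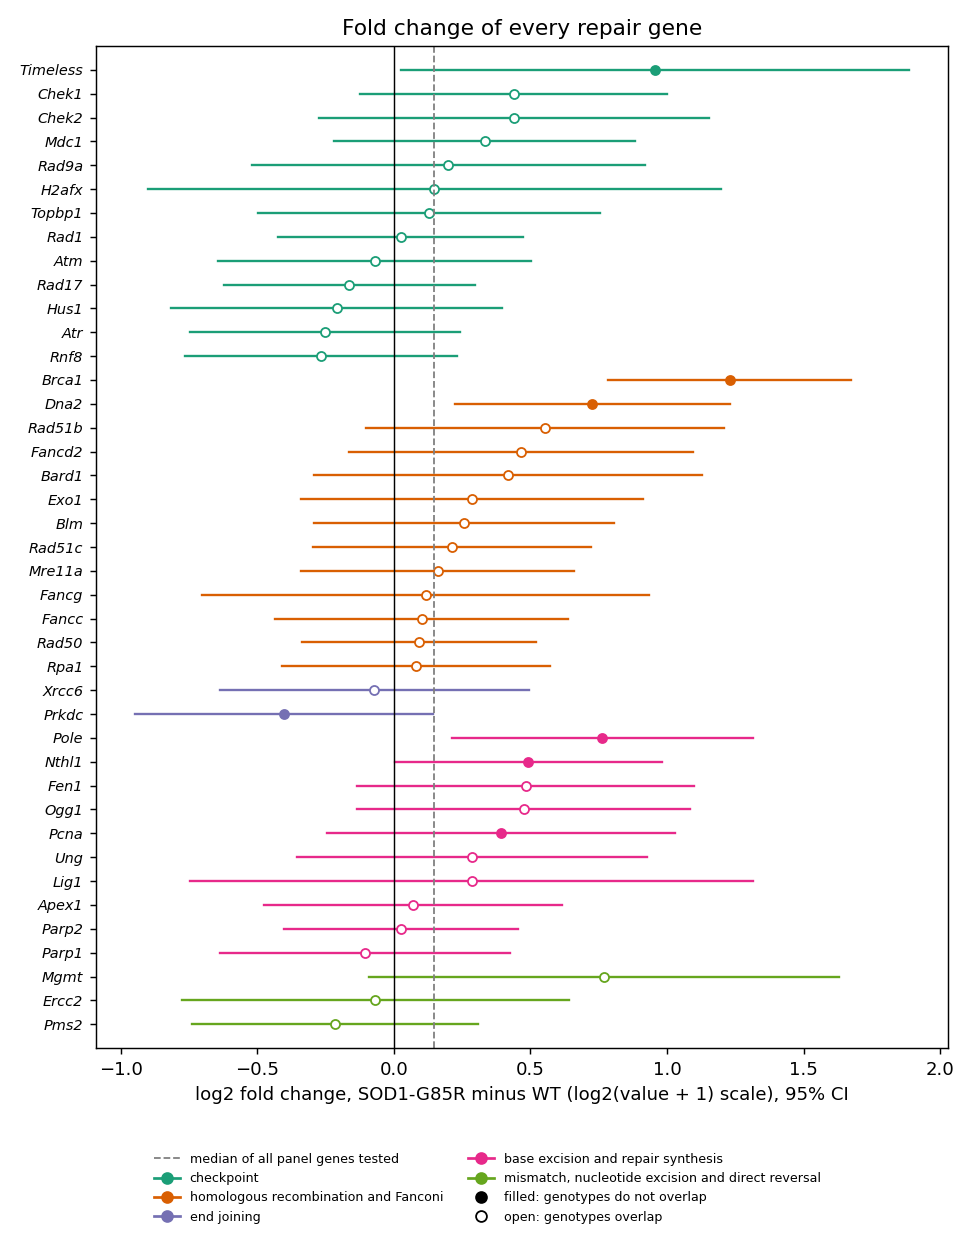
Log2 fold changes (SOD1-G85R minus WT, horizontal axis, log2(value + 1) scale) of the 41 repair genes, grouped by role and ordered within it, with 95% confidence intervals from limma and filled points for genotypes that do not overlap. Brca1 lies farthest to the right at 1.23, Prkdc farthest to the left at -0.40, and the dashed line marks the panel median of 0.15.

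Among homologous recombination and Fanconi genes, Brca1 had the largest difference of the 41 genes as deposited. Brca1, whose product directs broken ends towards homologous recombination, had 50.1, 45.4 and 54.0 normalized counts in SOD1-G85R replicates 1, 2 and 3, against 22.9, 19.1 and 19.98 in WT replicates 1, 2 and 3. All SOD1-G85R samples lay above all WT samples, by more than the spread within either genotype. The means were 49.8 ± 4.31 and 20.7 ± 2.01 (SD, n = 3 each), and the log2 fold change was 1.23 (SE 0.18, limma, adjusted p = 0.0810). These levels rest on 38 to 57 implied counts per SOD1-G85R sample and 19 to 29 per WT sample. The lowest bound of the 95% exact Poisson intervals was 34.4 in SOD1-G85R and the highest was 32.9 in WT, and Brca1 was the 1 gene of the 41 whose counting intervals did not touch. Without SOD1-G85R replicate 2, Brca1 was the 1 repair gene past the threshold, among 4 of 676 panel genes called (0.592%). Its log2 fold change was then 1.29 (limma, adjusted p = 0.0465). Brca1 passed the filter there through both remaining SOD1-G85R samples and WT replicate 1 alone. Its adjusted p ranged from 0.0329 to 0.675 over the 18 settings that tested it, the filter at 50 having left it out, and after quantile normalization its log2 fold change was 0.45.

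Dna2, a nuclease and helicase that lengthens resected ends and trims flaps at replication forks, had 46.9, 53.4 and 46.9 in SOD1-G85R and 23.7, 31.2 and 33.6 in WT. The SOD1-G85R samples lay close together and above each WT sample. Its log2 fold change was 0.73 (SE 0.21, limma, adjusted p = 0.223), 0.67 without SOD1-G85R replicate 2 and -0.12 after quantile normalization.

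Partners of these genes differed less between genotypes. Bard1, the partner that BRCA1 needs for its ubiquitin ligase activity, had 45.8, 81.2 and 42.6 in SOD1-G85R and 35.6, 44.3 and 41.6 in WT, so that SOD1-G85R replicate 2 alone was clearly higher. Its log2 fold change was 0.42 (95% CI -0.29 to 1.13), and 0.13 without that sample. Rad51b, which acts in homologous recombination, had 25.6, 18.3 and 32.7 in SOD1-G85R and 15.8, 20.1 and 14.4 in WT, where the genotypes overlapped through SOD1-G85R replicate 2 and WT replicate 2. Without SOD1-G85R replicate 2 its log2 fold change was 0.76 (limma, adjusted p = 0.197), against 0.55 with all samples. Fancd2, the Fanconi protein that is ubiquitinated at crosslinks, had 30.9, 39.8 and 39.8 in SOD1-G85R and 19.0, 31.2 and 30.4 in WT, with SOD1-G85R replicate 1 level with the upper WT samples.

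The end-processing genes Mre11a and Rad50, of the complex that first binds broken ends, had log2 fold changes of 0.16 (95% CI -0.34 to 0.66) and 0.093 (95% CI -0.33 to 0.52). Rpa1, which coats single-stranded DNA, had 0.081 (95% CI -0.41 to 0.57), and -0.032 without SOD1-G85R replicate 2. The exonuclease gene Exo1 had 24.5, 26.3 and 32.7 in SOD1-G85R and 21.4, 30.2 and 17.6 in WT, which overlapped. The helicase gene Blm, the recombination gene Rad51c and the Fanconi core genes Fancc and Fancg had log2 fold changes between 0.10 and 0.26, each with overlapping genotypes. All 13 genes of this role had a positive fold change as deposited, with a median of 0.26. All 13 were also positive with samples centred on housekeeping genes. With each sample centred on its median 8 of 13 were positive, and after quantile normalization 1 of 13, Brca1, so that the shared sign depended on the scaling.

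The promoters of Brca1, its partner Bard1 and Nthl1 are shown because they put the gene with the largest difference beside its partner with a smaller one, and beside the 1 higher gene that carried an E2F match. Windows of 300 bases, from 250 before to 50 after the annotated start, came from RefSeq on build GRCm38.p6 and were found for 34 of the 41 genes. They were searched on both strands for the E2F motif (TTTCCCGC, TTTCGCGC, TTTGCCGC or TTTGGCGC), for the CHR motif (TTTGAA) and for CCAAT. Capitals mark these matches, and no match overlaps another in the sequences shown.
Brca1, chr11:101551906-101552205, minus strand: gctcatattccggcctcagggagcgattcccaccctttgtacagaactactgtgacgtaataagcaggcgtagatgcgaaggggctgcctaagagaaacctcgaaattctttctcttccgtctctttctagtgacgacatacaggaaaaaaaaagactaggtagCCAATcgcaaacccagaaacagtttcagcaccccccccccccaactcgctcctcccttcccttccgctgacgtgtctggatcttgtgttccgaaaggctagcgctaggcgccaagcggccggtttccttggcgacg
Bard1, chr1:71102923-71103222, minus strand: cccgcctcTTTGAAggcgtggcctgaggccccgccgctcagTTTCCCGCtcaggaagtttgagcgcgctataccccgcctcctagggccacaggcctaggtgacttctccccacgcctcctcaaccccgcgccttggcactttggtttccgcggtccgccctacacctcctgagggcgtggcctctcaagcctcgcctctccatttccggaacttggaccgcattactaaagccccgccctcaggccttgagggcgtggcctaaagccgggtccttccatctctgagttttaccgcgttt
Nthl1, chr17:24632432-24632731, plus strand: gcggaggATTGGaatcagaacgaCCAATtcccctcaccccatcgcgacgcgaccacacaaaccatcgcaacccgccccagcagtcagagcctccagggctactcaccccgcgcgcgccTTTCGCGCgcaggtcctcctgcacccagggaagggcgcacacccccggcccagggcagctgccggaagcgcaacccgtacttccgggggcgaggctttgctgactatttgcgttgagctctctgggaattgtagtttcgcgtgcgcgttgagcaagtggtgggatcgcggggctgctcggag

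An E2F match lay in the windows of 9 of the 34 genes (26.5%), against 2.6% of all 27025 genes with a window. The 9 were Bard1, Chek2, Fancg, Lig1, Mdc1, Nthl1, Rad51c, Topbp1 and Xrcc6. Of the 5 genes that were higher without overlap and had a window, 1 held a match, against 8 of the other 29. With so few genes no relation between motif and genotype was tested. CCAAT lay in 17 of the 34 genes (50%) and in 41.1% of all genes, and the CHR motif in 5 (14.7%) and in 20.2%. A match describes letters in these windows and is not a measured site.

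**Figure D2:**
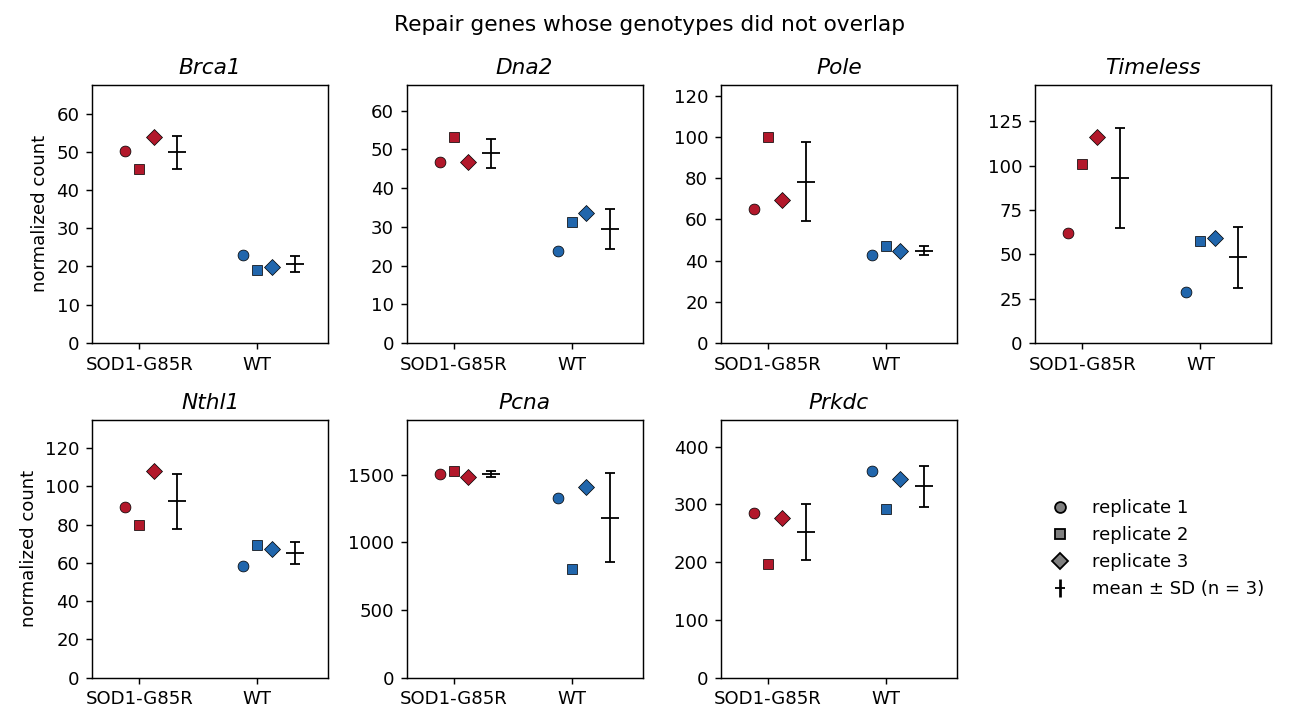
Normalized counts (vertical axes, from 0) of the 7 repair genes whose genotypes did not overlap, with SOD1-G85R left and WT right in each plot, symbols for replicates and bars for mean ± SD (n = 3). The Brca1 samples lie at 45.4 to 54.0 in SOD1-G85R and 19.1 to 22.9 in WT, while for Pcna the gap to the nearest WT sample is small and WT replicate 2 lies far below the others.

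Genes of base excision and repair synthesis included 3 whose genotypes did not overlap. Pole, the catalytic subunit of DNA polymerase epsilon, had 65.0, 100 and 69.6 in SOD1-G85R and 42.7, 47.3 and 44.7 in WT. SOD1-G85R replicate 2 was the highest, and the other SOD1-G85R samples also lay above every WT sample. Its log2 fold change was 0.76 (SE 0.23, limma, adjusted p = 0.224), and 0.57 without SOD1-G85R replicate 2. It was 0.56 when each sample was centred on its median and 0.14 after quantile normalization.

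Nthl1, the glycosylase that removes oxidised pyrimidines, had 89.5, 79.6 and 108 in SOD1-G85R and 58.5, 69.4 and 67.1 in WT. Here SOD1-G85R replicate 2 was the lowest of its genotype, and the log2 fold change was 0.49 (SE 0.20, limma, adjusted p = 0.301) with it and 0.59 without it. After quantile normalization its log2 fold change was -0.050. Ogg1, the glycosylase for oxidised guanine, had 66.1, 78.0 and 112 in SOD1-G85R and 56.2, 56.3 and 67.1 in WT, where only SOD1-G85R replicate 1 fell within the WT range. Ung, which removes uracil, had 70.3, 86.0 and 89.5 in SOD1-G85R and 49.8, 88.5 and 67.1 in WT, with WT replicate 2 among the SOD1-G85R samples.

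Pcna, the sliding clamp that holds polymerases on DNA, had 1508, 1525 and 1483 in SOD1-G85R and 1328, 806 and 1411 in WT. The SOD1-G85R samples were nearly equal, and the difference between means rested mostly on WT replicate 2. The log2 fold change was 0.39 (SE 0.26, limma, adjusted p = 0.518), and 0.14 without WT replicate 2. Fen1, the nuclease that cuts flaps, had 119, 207 and 161 in SOD1-G85R and 102, 113 and 125 in WT. Lig1, the ligase that seals them, had 86.3, 231 and 124 in SOD1-G85R and 79.1, 150 and 114 in WT. Both were highest in SOD1-G85R replicate 2, and without that sample their log2 fold changes were 0.29 and -0.099, against 0.48 and 0.29 with it.

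The strand-break sensors and the endonuclease of this role did not stand apart. Parp1, the main poly(ADP-ribose) polymerase at breaks, had 547, 661 and 653 in SOD1-G85R and 535, 723 and 760 in WT (log2 fold change -0.11, SE 0.22, limma, adjusted p = 0.828, 95% CI -0.64 to 0.42). Parp2 had a log2 fold change of 0.026 (95% CI -0.40 to 0.45), and Apex1, which cuts the backbone at sites without a base, had 0.071 (95% CI -0.47 to 0.62). For these genes the intervals exclude neither a small rise nor a small fall.

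In the checkpoint, the genotypes stood apart for Timeless and overlapped for the apical kinases Atm and Atr. Timeless, which protects stalled replication forks and helps ATR signal to CHK1, had 61.8, 101 and 116 in SOD1-G85R and 28.5, 57.3 and 59.1 in WT. SOD1-G85R replicate 1 was only just above the highest WT sample, and WT replicate 1 was far below the other WT samples. The log2 fold change was 0.96 (SE 0.38, limma, adjusted p = 0.301), 0.87 without SOD1-G85R replicate 2 and 0.37 after quantile normalization.

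Atm had 413, 323 and 332 in SOD1-G85R and 424, 289 and 420 in WT, and its log2 fold change was -0.070 (SE 0.24, limma, adjusted p = 0.887, 95% CI -0.64 to 0.50). Atr had 265, 195 and 227 in SOD1-G85R and 300, 244 and 272 in WT, a log2 fold change of -0.25 (SE 0.20, limma, adjusted p = 0.581, 95% CI -0.75 to 0.24). For both kinases the genotypes overlapped.

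Their target kinases lay at lower signal. Chek1, which acts downstream of ATR, had 47.9, 39.8 and 52.6 in SOD1-G85R and 41.1, 27.2 and 35.2 in WT, with a log2 fold change of 0.44 (SE 0.23, limma, adjusted p = 0.424). SOD1-G85R replicate 2 fell just below WT replicate 1, and without that sample the genotypes did not overlap. Chek2, downstream of ATM, had 40.5, 61.3 and 61.1 in SOD1-G85R and 49.0, 28.2 and 43.2 in WT, a log2 fold change of 0.44 (SE 0.29, limma, adjusted p = 0.518). Both changed sign after quantile normalization, with log2 fold changes of -0.24 and -0.22.

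The clamp formed by the products of Rad9a, Rad1 and Hus1 marks damaged sites for ATR, and RAD17 loads it. Rad1 was at 288 to 352 in SOD1-G85R and 282 to 320 in WT, and Rad17 at 214 to 264 in SOD1-G85R and 237 to 284 in WT. Hus1 was at 216 to 320 in SOD1-G85R and 240 to 354 in WT, and Rad9a at 67.1 to 108 in SOD1-G85R and 60.9 to 105 in WT. All of these overlapped, as did Topbp1, which activates ATR, at 92.7 to 145 in SOD1-G85R and 90.2 to 127 in WT.

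The genes that mark breaks in chromatin were H2afx, the histone variant phosphorylated beside a break, Mdc1, which binds that mark, and Rnf8, the ubiquitin ligase that follows. H2afx had 708, 1698 and 1572 in SOD1-G85R and 743, 1431 and 1308 in WT, with replicate 1 low in both genotypes. Its log2 fold change was 0.15 with a wide 95% CI of -0.90 to 1.20, and -0.080 without SOD1-G85R replicate 2. Mdc1 had 327, 305 and 325 in SOD1-G85R and 237, 208 and 328 in WT, where WT replicate 3 reached the SOD1-G85R level. Rnf8 had 129, 135 and 162 in SOD1-G85R and 146, 195 and 173 in WT, and its log2 fold change was -0.27 (95% CI -0.76 to 0.23).

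End joining was represented by Prkdc and Xrcc6. Prkdc, the catalytic subunit of DNA-PK, had 284, 197 and 277 in SOD1-G85R and 358, 292 and 344 in WT. Every SOD1-G85R sample lay below every WT sample, with SOD1-G85R replicate 1 just under WT replicate 2. The log2 fold change was -0.40 (SE 0.22, limma, adjusted p = 0.445), and -0.23 without SOD1-G85R replicate 2. Its sign was the same under all 4 scalings, with a log2 fold change of -0.61 for centred samples and -0.67 after quantile normalization. Under these 2 the genotypes overlapped. Xrcc6, the smaller Ku subunit, had 297, 197 and 276 in SOD1-G85R and 296, 232 and 273 in WT (log2 fold change -0.072, SE 0.23, limma, adjusted p = 0.882, 95% CI -0.64 to 0.49). In both genes SOD1-G85R replicate 2 was the lowest of the 6 samples.

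Of the remaining genes, Mgmt, which removes alkyl groups from guanine, had 29.8, 71.7 and 46.9 in SOD1-G85R and 22.2, 33.2 and 26.4 in WT. SOD1-G85R replicate 1 lay within the WT range, and the log2 fold change was 0.77 (95% CI -0.090 to 1.63), 0.46 without SOD1-G85R replicate 2 and -0.17 after quantile normalization. The mismatch repair gene Pms2 had 384, 275 and 261 in SOD1-G85R and 341, 348 and 364 in WT, with SOD1-G85R replicate 1 above and the other SOD1-G85R samples below all WT samples. Ercc2, a helicase of nucleotide excision repair and transcription, had 227, 408 and 330 in SOD1-G85R and 259, 385 and 353 in WT. Its log2 fold change was -0.068 (95% CI -0.78 to 0.64), and -0.26 without SOD1-G85R replicate 2.

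The samples of a genotype also differed among themselves, and in part alike in both genotypes. In 16 of the 41 genes (39.0%), among them H2afx, Timeless, Fancg, Lig1, Parp1 and Ercc2, replicate 1 was the lowest sample of SOD1-G85R and of WT, as in 43.8% of the panel. In 9 genes (22.0%) replicate 2 was the lowest of both, against 12.4% of the panel: Atm, Atr, Chek1, Rad1, Rad17, Mdc1, Brca1, Xrcc6 and Prkdc. These are counts over samples that share a number, given as a description. The median of the 41 genes, relative to the WT mean, was 0.10, 0.27 and 0.32 in SOD1-G85R replicates 1, 2 and 3 and -0.086, 0.074 and 0.089 in the WT samples, on the log2 scale. The median of SOD1-G85R replicate 2, which stood apart over the panel, thus lay between those of the other SOD1-G85R samples. The panel medians in SOD1-G85R replicates 1, 2 and 3 were -0.090, 0.32 and 0.10. Relative to the panel, the repair genes therefore lay lower in replicate 2 and higher in replicates 1 and 3. Single repair genes in SOD1-G85R replicate 2 ran from -0.74 (Prkdc) to 1.38 (Mgmt).

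**Figure D3:**
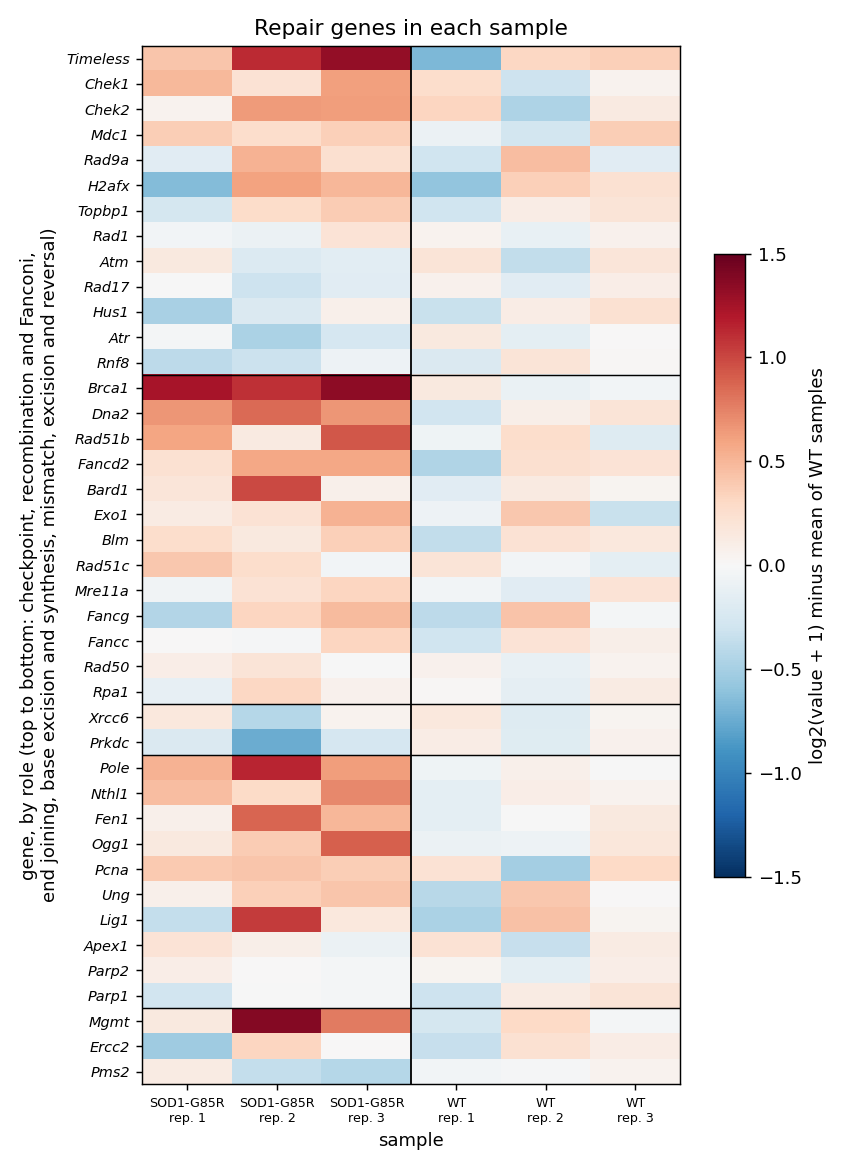
Log2(value + 1) minus the mean of the WT samples (colour, blue below and red above the WT mean) for the 41 repair genes in rows, by role, with SOD1-G85R samples left of WT samples. Brca1 is red in all 3 SOD1-G85R samples, H2afx is blue in replicate 1 of both genotypes, and Prkdc is darkest blue in SOD1-G85R replicate 2.

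Other genes of the same pathways were taken from lists written with earlier results of these data known. Among further repair and checkpoint genes, the phosphatase gene Cdc25a, which drives cell cycle entry, Nbn, of the complex that binds broken ends, and Ddb2, which recognises ultraviolet lesions, had log2 fold changes of 0.17, -0.079 and -0.026. In all 3 the genotypes overlapped.

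Of 25 listed genes of p53 and its targets 15 were measured, 11 with a positive fold change and a median of 0.18, against the panel's 0.15. Without SOD1-G85R replicate 2, 8 of 15 were positive with a median of 0.030, and after quantile normalization 6 of 15 with a median of -0.12. At an unadjusted p of 0.05 by limma, 3 were higher (20%, against 11.7% of the panel for that direction) and 0 lower. They were the death receptor genes Tnfrsf10b and Fas and the p53 relative Trp73, with log2 fold changes of 1.16, 1.26 and 0.74 and adjusted p of 0.190, 0.200 and 0.224. Fas had 30.9, 71.7 and 51.1 in SOD1-G85R and 19.8, 17.1 and 22.4 in WT. It therefore passed the filter above 20 only with SOD1-G85R samples counted. Trp53 itself had 114, 264 and 170 in SOD1-G85R and 134, 250 and 149 in WT. Cdkn1a, the cell cycle inhibitor induced by p53, had 804, 1412 and 832 in SOD1-G85R and 454, 763 and 697 in WT, without overlap (log2 fold change 0.66, SE 0.32, limma, adjusted p = 0.390).

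Markers of dividing cells had larger fold changes than most repair genes, and limma called 0 of them at an adjusted p of 0.05. All 11 measured of 33 listed had a positive fold change as deposited, and 9 of 11 for centred samples and after quantile normalization. As deposited, limma gave 9 of them an unadjusted p under 0.05, all higher (81.8%, against 11.7% of the panel in that direction), and genotypes did not overlap in 8 (72.7%, against 27.0% of the panel). Their median log2 fold change was 1.02, and it was 0.81 for centred samples, 0.55 after quantile normalization and 0.77 without SOD1-G85R replicate 2. Summed over the 11, their level was 2570 to 3319 in SOD1-G85R samples and 1306 to 1477 in WT samples. Top2a, the topoisomerase of dividing cells, had 594, 608 and 463 in SOD1-G85R and 154, 161 and 212 in WT. Kif2c, another of the 11 markers, had 38.35, 59.7 and 61.1 in SOD1-G85R and 16.6, 28.2 and 21.6 in WT. Kif2c passed the filter above 20 only with SOD1-G85R samples counted, and it was among those with an unadjusted p under 0.05 by limma. The part of dividing cells in the levels of Brca1, Dna2, Pole and Timeless was not tested.

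**Figure D4:**
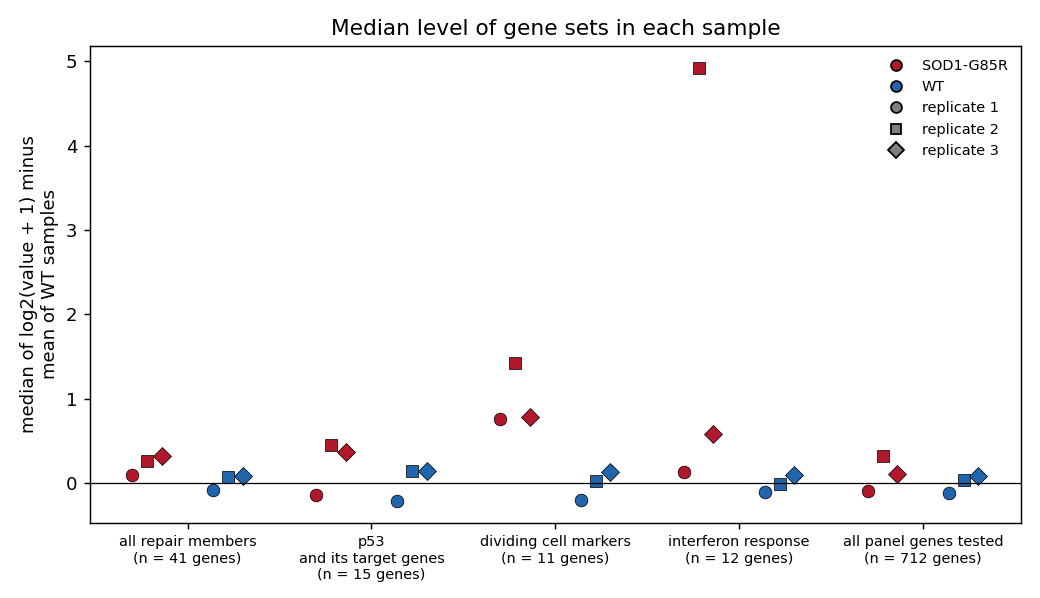
Median over genes of log2(value + 1) minus the mean of the WT samples (vertical axis) for 5 gene sets, with SOD1-G85R left and WT right in each set and symbols for replicates. Repair genes lie at 0.10 to 0.32 in SOD1-G85R and dividing cell markers at 0.76 to 1.42, while interferon response genes reach 4.92 in SOD1-G85R replicate 2.

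The summed levels of myelin and of neuron markers were lower in each SOD1-G85R sample than in any WT sample. Summed levels of 19 measured of 24 oligodendrocyte and myelin markers were 30216 to 41559 in SOD1-G85R and 57494 to 77999 in WT, and of 12 measured of 21 neuron markers 34369 to 40866 in SOD1-G85R and 44144 to 46270 in WT. Their part in the levels of the repair genes, Prkdc included, was not tested. The 13 housekeeping genes of the panel summed to 6517 to 7446 in SOD1-G85R and 7242 to 7615 in WT.

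Counting error was largest for the genes of low signal. The implied counts behind single values of the 41 genes ran from 18, for Rad51b in WT replicate 3, to 2133, for H2afx in SOD1-G85R replicate 2, with counting errors of 23.6% and 2.17%. In 21 of the 41 genes at least 1 sample had under 100 implied counts. Intervals cover counting error only.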

How the data were processed

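Whole-brain RNA of 3 SOD1-G85R and 3 WT samples was measured; groups follow the labelled genotype. The deposited table gives a normalized NanoString signal for every gene in every sample, here termed normalized count. How the authors scaled it, and with which software, is not given in the sources used here. Below 150, 100% of each sample's values over its lowest one were multiples of 1 step to within 0.1 count, and dividing by that step gave implied counts. The lowest value, shared by 10 to 59 genes, was read as a floor.

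Values were taken as log2(value + 1), which understates changes of low genes. The filter asked for over 20 in 3 or more of the 6 samples, which kept 712 of 770 genes. These were fitted without covariates by limma's lmFit and eBayes (limma 3.58.1, R 4.3.3, two-sided), and p-values were adjusted over the 712 by Benjamini-Hochberg with a threshold of 0.05. The procedure was tested on simulated data. The 42 genes and all lists were chosen with earlier results of these data known. Full statistics went to genes with an unadjusted p under 0.05, to those without overlap, and to Atm, Atr, Chek1, Chek2, Brca1, Parp1, Pcna and Xrcc6. Up to 4 genes of smallest p were named from each further pathway list, and Ddb2 and Trp53 were added after their values were seen. Some further genes of the lists are not reported here. Of the 41 symbols 40 were current in GRCm38.p6. Figures were drawn with matplotlib 3.10.9.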

Additional observations from a re-analysis of the deposited data

How the results depend on the processing

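Beside the scalings (medians, housekeeping genes, quantiles), the alternatives changed the filter (none, or 50), the pseudocount (0.5 or 10), the floor (20 in all samples), the variance model (trended and robust) or the covariates (replicate block, signal of the Y-linked gene Uty), or left out 1 replicate. A count model was not run, since floored values are no whole counts. Repair genes called were 0 in the report's setting and 0 to 1 when a replicate was left out, the 1 being Brca1 without SOD1-G85R replicate 2. Panel genes called were 0, and 0 to 4 when a replicate was left out. Keeping the same 712 genes without SOD1-G85R replicate 2, a setting added after the data were seen, 10 panel genes and 1 repair gene were called (limma, adjusted p = 0.0329 for Brca1). The median of the repair genes was 0.20, from 0.087 without WT replicate 1 to 0.32 without SOD1-G85R replicate 1. It was 0.19 for samples centred on housekeeping genes, -0.0079 for median-centred samples and -0.24 after quantile normalization. Of the 13 genes given full statistics, 4 changed sign after quantile normalization: Chek1 (-0.24), Chek2 (-0.22), Dna2 (-0.12) and Nthl1 (-0.050). Xrcc6 did so without SOD1-G85R replicate 2 (0.11, also with the same 712 genes) and without WT replicate 1 (0.0054), and Atm without WT replicate 1 (0.024) and without WT replicate 3 (0.018). With 1 replicate left out, Xrcc6 ranged from -0.19 to 0.11 and Atm from -0.25 to 0.024. The cause of these reversals was not tested. After quantile normalization 1 repair gene, Exo1, reached an unadjusted p of 0.05, and it was lower, while the panel then had 22 of 58 such genes higher, against 83 of 116 as deposited. Same-numbered samples correlated at 0.23, 0.088 and 0.0999 in their deviations from the group means over the panel, which is not over 0.1 in every pair, and at 0.69, 0.42 and 0.074 over the repair genes. Samples of unlike number correlated at -0.32 to 0.19 over the panel and at -0.59 to 0.28 over the repair genes. The highest of these, SOD1-G85R replicate 3 with WT replicate 2, exceeded the same-numbered pair of replicate 3. The labels do not say what the numbers mark. With the replicate number as a block, 0 repair genes and 0 panel genes were called, with an adjusted p = 0.121 for Brca1, and 7 repair genes and 162 panel genes reached an unadjusted p of 0.05. With the signal of Uty as a covariate, 0 repair genes and 0 panel genes were called (limma, adjusted p = 0.201 for Brca1, log2 fold change 1.21). The filter at 50 kept 32 of the 41 repair genes, and Brca1, Dna2, Chek1 and Chek2 were among those left out. Depth limits the genes under 100 implied counts most.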
